A study of Rattus norvegicus with 11 samples.

Results

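Transcript levels of 45 genes that make, break down or respond to cyclic AMP (cAMP) were examined in cultured rat dorsal root ganglion (DRG) neurons. The members were chosen by name from the families of the pathway, and all 45 had a row among the 22076 genes of the table. They comprised 5 G protein alpha subunits, 8 adenylyl cyclases, 15 phosphodiesterases, 2 catalytic and 4 regulatory subunits of protein kinase A (PKA), 3 PKA inhibitors, 2 EPAC exchange factors, 2 A-kinase anchoring proteins, and 4 genes of the CREB family and its coactivators. Of these, 37 reached a mean of 1 FPKM over the 11 libraries and were tested together with all other genes at that level (12107 in all), and 8 did not and are given as ranges.

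The study asked how Schwann cell conditioned medium (SCCM) and prostaglandin E2 (PGE2), a lipid mediator named in the series title as a Schwann cell product, act on developing sensory neurons. Wild type Sprague-Dawley neurons were sequenced in bulk as untreated (n = 3), SCCM (n = 4) and 1 µM PGE2 (n = 4) cultures. All cultures came from ganglia of embryonic day 15, were purified by immunopanning (capture of cells on antibody-coated dishes), were treated overnight from day 13 in vitro and were lysed on day 14. Pooled embryos of 1 pregnant rat made 1 replicate, and vehicle-treated cultures were not analysed here. In bulk samples, a change in the share of cells of a type and a change in RNA per cell cannot be told apart.

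Receptors that couple to the stimulatory G protein activate adenylyl cyclases, which convert ATP to cAMP, while inhibitory G proteins restrain several of these enzymes. cAMP releases the catalytic subunits of PKA from their regulatory subunits and opens EPAC, an exchange factor for Rap GTPases, and phosphodiesterases end the signal by hydrolysing cAMP. In sensory neurons PGE2 is known to act through EP receptors, some of which raise cAMP, and PKA is known to phosphorylate ion channels that set the excitability of nociceptors.

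The cultures expressed neuronal genes, and the lowest value of any of 18 neuron markers in any library was 4.36 FPKM (Dcx, a microtubule-binding protein of young neurons). Several defining markers of other cells were near 0, with Sox10 of glia at no more than 0.07 FPKM, Ptprc of immune cells at 0 and Cldn5 of endothelium at 0 in every library. Of 21 glial markers with a row, 11 stayed under 1 FPKM everywhere, 2 of these (Gfap and Mal) at 0. The summed FPKM of the list was 104.5 to 230.0 in untreated, 227.9 to 343.3 with SCCM and 174.8 to 256.2 with PGE2. The markers reaching the highest values in it were Ngfr (29.05 to 260.02 FPKM) and Pmp22 (21.55 to 84.95 FPKM). The part of glia in the results was not tested. Of 14 fibroblast and meningeal markers with a row, 8 stayed under 1 FPKM everywhere. Among those, Col1a1 reached at most 0.17 FPKM and Dcn at most 0.15 FPKM. Pdgfra lay between 1.24 and 3.74 FPKM and Col6a2 between 1.23 and 13.27 FPKM. Thy1 (216.69 to 970.59 FPKM) and Vim (50.67 to 249.26 FPKM) made up most of the sum of the list. That sum was 409.9 to 1108 FPKM in untreated, 316.5 to 1047 FPKM with SCCM and 888.2 to 1104 FPKM with PGE2. The part of fibroblasts and meningeal cells was not tested either. Cd68 of macrophages lay between 0.04 and 45.11 FPKM. Within a treatment, libraries differed widely. The first principal component of all tested genes held 56% of the variance and placed SCCM replicates 2 and 3 and PGE2 replicates 3 and 4 at scores of 40.0 to 55.8, above SCCM replicate 4 at 7.62 and the other 6 libraries at −60.8 to −7.68. The mean of a list of hypoxia and glycolysis genes (centred log2 values) was −1.24 to −0.797 in those 4 libraries and 0.330 to 0.786 in the other 7. Because members vary along the same line, the values without these 4 libraries are given for most of the members that divide along it; that alternative, and a fit with the hypoxia and glycolysis mean as a covariate, were chosen after seeing the data. Read totals were not given, and relative depth, judged from the smallest steps in the values, differed by at most 1.32-fold.

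SCCM against untreated asks about the conditioned medium as a whole. Prkar2b, a regulatory subunit of PKA, had a mean of 8.30 ± 3.29 FPKM with SCCM (SD, n = 4) and 2.93 ± 0.902 FPKM without it (n = 3), and the phosphodiesterases Pde10a and Pde2a and the exchange factor Rapgef4 also had higher means with SCCM. Pde7a, a phosphodiesterase specific for cAMP, had the lower mean (2.26 ± 0.290 against 3.58 ± 0.817 FPKM). No member passed the test at an adjusted p under 0.05 in limma, and neither did any of the 12107 genes (0.0%). At an unadjusted p under 0.05 stood 6 of 37 members, 5 with higher and 1 with lower means, against 13.6% of all tested genes. Fitted means were higher for 20 members and lower for 17, where 38.7% of all genes had higher means, and the median log2 change was 0.07 over the members and −0.13 over all genes. The values of the 2 groups did not overlap for 4 members, against 10.6% of all genes: Prkar2b and Rapgef4 were higher and Pde4a and Pde7a lower in every SCCM library.

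PGE2 against untreated asks about that lipid as it was added, and the part of its vehicle was not tested. Gnal, the stimulatory G protein alpha subunit first known from olfactory neurons, had a mean of 35.5 ± 11.7 FPKM with PGE2 (n = 4) and 19.0 ± 5.99 FPKM without (n = 3). Gnai1, an inhibitory alpha subunit, stood at 47.2 ± 2.88 against 38.6 ± 4.24 FPKM. No member and no other gene was called (0.0%), and Gnal was the only member at an unadjusted p under 0.05 in limma, against 5.72% of all genes. Fitted means were higher for 24 members and lower for 13, where 32.9% of all genes had higher means, and the median log2 change was 0.10 over the members and −0.16 over all genes. Groups did not overlap for 2 members, Gnal and Gnai1, both higher with PGE2, against 5.33% of all genes. The untreated libraries are shared by both comparisons, so their results are not independent of each other.

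SCCM against PGE2 asks whether the medium differs from the lipid as it was added. No member was called, 0 of 37 were at an unadjusted p under 0.05 in limma (3.28% of all genes), and the 1 gene called among 12107 (0.00826%) was no member. The 4 lowest unadjusted p-values belonged to Gnai1, Pkia, Gnai2 and Pde1a, all with lower means under SCCM. Fitted means were higher under SCCM for 18 members and lower for 19, where 53.4% of all genes were higher, and the median log2 change was −0.02 over the members and 0.02 over all genes. Groups did not overlap for 1 member, Pkia, against 2.21% of all genes.

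**Figure D1:**
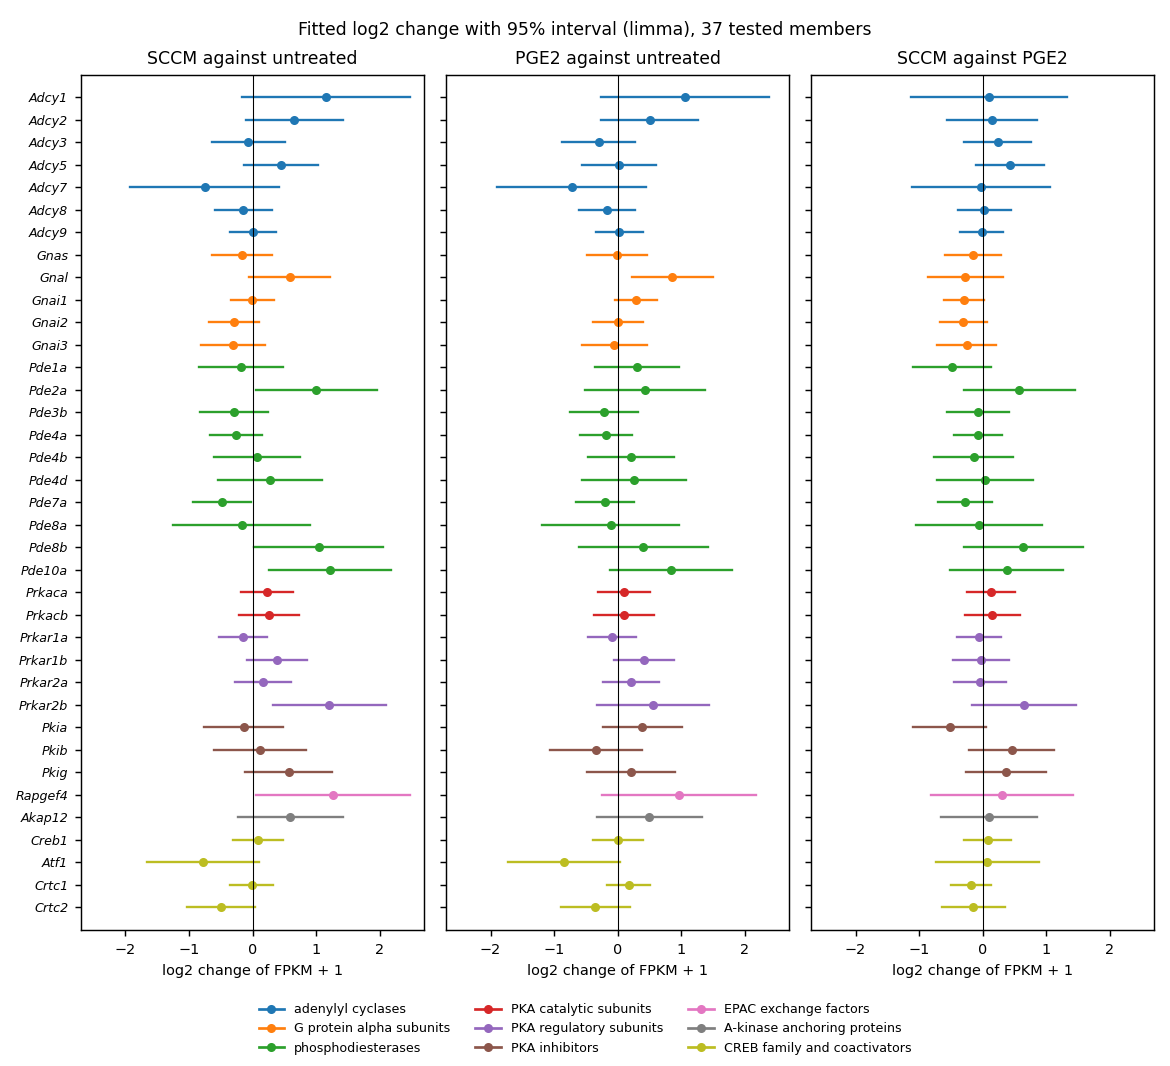
Fitted log2 change of FPKM + 1 (x axis) for each of the 37 tested members (y axis, coloured by family) in the 3 comparisons, with points for the estimate and lines for its 95% interval. Intervals clear of 0 are seen for 6 members in the SCCM against untreated panel, among them Prkar2b at 1.21, for Gnal alone in the PGE2 panel at 0.86 and for none in the SCCM against PGE2 panel.

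The stimulatory alpha subunit Gnas was the most abundant member. It ranged from 819.65 FPKM in SCCM replicate 4 to 1386.09 FPKM in PGE2 replicate 2, with group means of 1136 ± 138 (untreated), 1020 ± 189 (SCCM) and 1136 ± 211 FPKM (PGE2). Its locus also gives rise to longer transcripts, which the table does not separate. Gnas made up 85.0 ± 3.08% of the summed FPKM of the 5 alpha subunits in untreated cultures, 84.8 ± 1.65% with SCCM and 83.4 ± 4.20% with PGE2.

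Gnal measured 23.46, 21.34 and 12.19 FPKM in the untreated, 23.38, 35.30, 32.01 and 23.28 FPKM in the SCCM and 26.09, 26.52, 38.32 and 50.85 FPKM in the PGE2 libraries (each in order of replicate number). Every PGE2 library was above every untreated one, whereas 2 SCCM libraries lay just under untreated replicate 1. Fitted log2 changes were 0.86 for PGE2 against untreated (SE 0.29, adjusted p = 0.538, limma), 0.59 for SCCM against untreated (SE 0.29) and −0.27 for SCCM against PGE2 (SE 0.27). Without untreated replicate 3 the PGE2 value was 0.59 and no longer passed an unadjusted p under 0.05, and without the 4 libraries that stood apart it was 0.50 (SE 0.28).

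Gnai1 measured 34.41, 38.55 and 42.89 FPKM in the untreated, 35.97, 46.09, 34.61 and 37.69 FPKM in the SCCM and 43.92, 47.00, 47.09 and 50.94 FPKM in the PGE2 libraries. The PGE2 values began just above the highest untreated one, and SCCM replicate 2 fell among them. In limma the log2 change came to 0.29 for PGE2 against untreated (SE 0.15) and −0.29 for SCCM against PGE2 (SE 0.14, adjusted p = 1.0). Gnai2, another inhibitory subunit, had means of 53.7 ± 6.67 (untreated), 43.7 ± 6.19 (SCCM) and 54.4 ± 9.37 FPKM (PGE2), and the log2 change for SCCM against PGE2 was −0.30 (SE 0.17, adjusted p = 1.0, limma). Gnai3 lay between 52.17 and 110.58 FPKM, and was the most abundant of the inhibitory subunits in the mean over libraries (79.0 FPKM).

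Among the adenylyl cyclases, Adcy2, which responds to G protein beta-gamma subunits, had the highest mean level (15.1 FPKM over the 11 libraries), followed by Adcy5, which is inhibited by calcium (7.75 FPKM), and Adcy1, which is stimulated by calcium and calmodulin (7.20 FPKM). Adcy8, another calcium-stimulated cyclase, averaged 5.54 FPKM, Adcy3 3.94, Adcy7 2.25 and Adcy9 1.84 FPKM. Adcy6 lay between 0.49 and 1.55 FPKM and was not tested. None of the 7 tested cyclases was at an unadjusted p under 0.05 in any of the 3 comparisons (limma).

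Adcy1 measured 3.16, 3.13 and 2.14 FPKM in the untreated, 3.11, 11.86, 16.14 and 4.56 FPKM in the SCCM and 2.83, 3.21, 14.95 and 14.10 FPKM in the PGE2 libraries. Each treated group held 2 libraries at 4.56 FPKM or less and 2 at 11.86 FPKM or more. In log2 terms the difference was 1.16 for SCCM (SE 0.60, adjusted p = 0.362) and 1.06 for PGE2 against untreated (SE 0.60, adjusted p = 0.538, limma). Without the 4 libraries that stood apart these values were 0.34 (SE 0.25) and 0.09 (SE 0.25).

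Adcy2 showed a similar division at smaller size: it lay between 18.60 and 24.15 FPKM in those 4 libraries and between 6.25 and 16.81 FPKM in the other 7. Without the 4, its log2 changes were 0.41 for SCCM and 0.04 for PGE2 against untreated (SE 0.36 each). Adcy7, a cyclase known to be abundant in blood cells, divided the other way. It measured 4.47, 4.83 and 1.16 FPKM in the untreated, 4.94, 0.58, 0.84 and 1.02 FPKM in the SCCM and 2.62, 3.07, 0.69 and 0.53 FPKM in the PGE2 libraries, so that SCCM replicate 1 stood with untreated replicates 1 and 2. The log2 change of Adcy7 was −0.75 for SCCM (SE 0.54) and −0.72 for PGE2 against untreated (SE 0.54), and without the 4 libraries that stood apart −0.24 and −0.09 (SE 0.56 each).

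The summed FPKM of 14 macrophage and immune markers, 12 of which stayed under 1 FPKM in every library and 4 of which, Ptprc among them, were at 0 throughout, was 4.33 to 46.4 in untreated cultures, 0.25 to 15.8 with SCCM and 0.23 to 14.99 with PGE2. Cd68 made up most of it in the libraries where it was high. The sum was 19.46 in untreated replicate 2, 15.8 in SCCM replicate 1 and 14.99 in PGE2 replicate 2, each the library of its group with the highest Adcy7, and it was under 1 in SCCM replicates 2 to 4 and PGE2 replicates 3 and 4, where Adcy7 was also low. Untreated replicates 1 and 3 went the other way. Replicate 3 had the highest sum, 46.4, with Adcy7 at 1.16 FPKM, and replicate 1 the lowest untreated sum, 4.33, with Adcy7 at 4.47 FPKM. The part of these cells in the Adcy7 values was not tested. Adcy9, which lay between 1.47 and 2.06 FPKM, and Adcy8, between 3.77 and 7.29 FPKM, varied least among the tested cyclases. Adcy3, the cyclase of olfactory cilia, had log2 changes of −0.06 for SCCM (SE 0.26) and −0.30 for PGE2 against untreated (SE 0.26). Adcy5 stood at 0.45 for SCCM against untreated (SE 0.27) and 0.02 for PGE2 against untreated (SE 0.27).

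Of the 15 phosphodiesterases, 10 were tested, and Pde2a, which hydrolyses both cAMP and cGMP and is stimulated by cGMP, was the most abundant (45.2 FPKM in the mean over libraries). It measured 40.92, 28.13 and 18.91 FPKM in the untreated, 31.80, 75.83, 69.80 and 62.96 FPKM in the SCCM and 21.86, 25.38, 65.49 and 56.56 FPKM in the PGE2 libraries. SCCM replicates 2 to 4 were above every untreated library and SCCM replicate 1 was within their range. The log2 change was 1.00 for SCCM (SE 0.43, adjusted p = 0.357, limma) and 0.43 for PGE2 against untreated (SE 0.43). Without the 4 libraries that stood apart it was 0.66 (SE 0.38) and −0.24 (SE 0.38).

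Pde10a, a dual phosphodiesterase best known from the striatum, measured 7.95, 4.99 and 2.11 FPKM in the untreated, 6.21, 15.76, 17.68 and 10.89 FPKM in the SCCM and 10.32, 4.31, 11.16 and 11.79 FPKM in the PGE2 libraries. As for Pde2a, SCCM replicates 2 to 4 were above all untreated libraries, and with PGE2 replicate 2 was the low one. Fitted log2 changes were 1.22 for SCCM (SE 0.44, adjusted p = 0.357) and 0.84 for PGE2 against untreated (SE 0.44, adjusted p = 0.538, limma). Without the 4 libraries that stood apart the values were 0.75 (SE 0.51) and 0.49 (SE 0.51).

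Pde8b, a high-affinity enzyme for cAMP, was low and variable. It measured 1.67, 0.97 and 0.69 FPKM in the untreated, 1.37, 2.83, 6.88 and 3.63 FPKM in the SCCM and 1.40, 0.35, 2.40 and 4.10 FPKM in the PGE2 libraries. Its log2 change was 1.04 for SCCM (SE 0.46, adjusted p = 0.357, limma) and 0.40 for PGE2 against untreated (SE 0.46), and its highest value was 19.7-fold its lowest, the widest range of any tested member. Without the 4 libraries that stood apart the log2 changes were 0.68 and −0.20 (SE 0.39 each), and the PGE2 value was within its standard error in both fits.

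Pde7a measured 2.64, 3.98 and 4.12 FPKM in the untreated, 2.61, 1.90, 2.26 and 2.26 FPKM in the SCCM and 3.22, 3.95, 2.22 and 2.60 FPKM in the PGE2 libraries. All SCCM values were under all untreated ones, although replicate 1 of each group lay almost level. In limma the log2 change came to −0.48 for SCCM (SE 0.21, adjusted p = 0.357) and −0.20 for PGE2 against untreated (SE 0.21), and without the 4 libraries that stood apart −0.40 and 0.01 (SE 0.25 each). Pde4a, of the rolipram-sensitive family, also had separate groups, with 1.27 to 1.76 FPKM untreated and 0.94 to 1.22 FPKM with SCCM, and a log2 change of −0.26 (SE 0.19).

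Pde3b, which is inhibited by cGMP, averaged 8.66 FPKM and Pde8a 6.56 FPKM over the 11 libraries, and both were at their lowest in SCCM replicate 3 and their highest in SCCM replicate 1. Pde4b lay between 1.26 and 4.96 FPKM and Pde4d between 1.45 and 5.87 FPKM, each with both ends in the PGE2 group. Pde1a, which is stimulated by calcium and calmodulin, had means of 2.44 ± 1.40 (untreated), 1.96 ± 0.782 (SCCM) and 3.08 ± 0.641 FPKM (PGE2), and its log2 change for SCCM against PGE2 was −0.49 (SE 0.28, adjusted p = 1.0, limma). The untested phosphodiesterases were Pde1c (0.26 to 2.0 FPKM), Pde3a (0.21 to 1.67 FPKM), Pde1b (0.38 to 0.99 FPKM), Pde4c (0 to 0.15 FPKM) and Pde7b (0 to 0.03 FPKM).

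**Figure D2:**
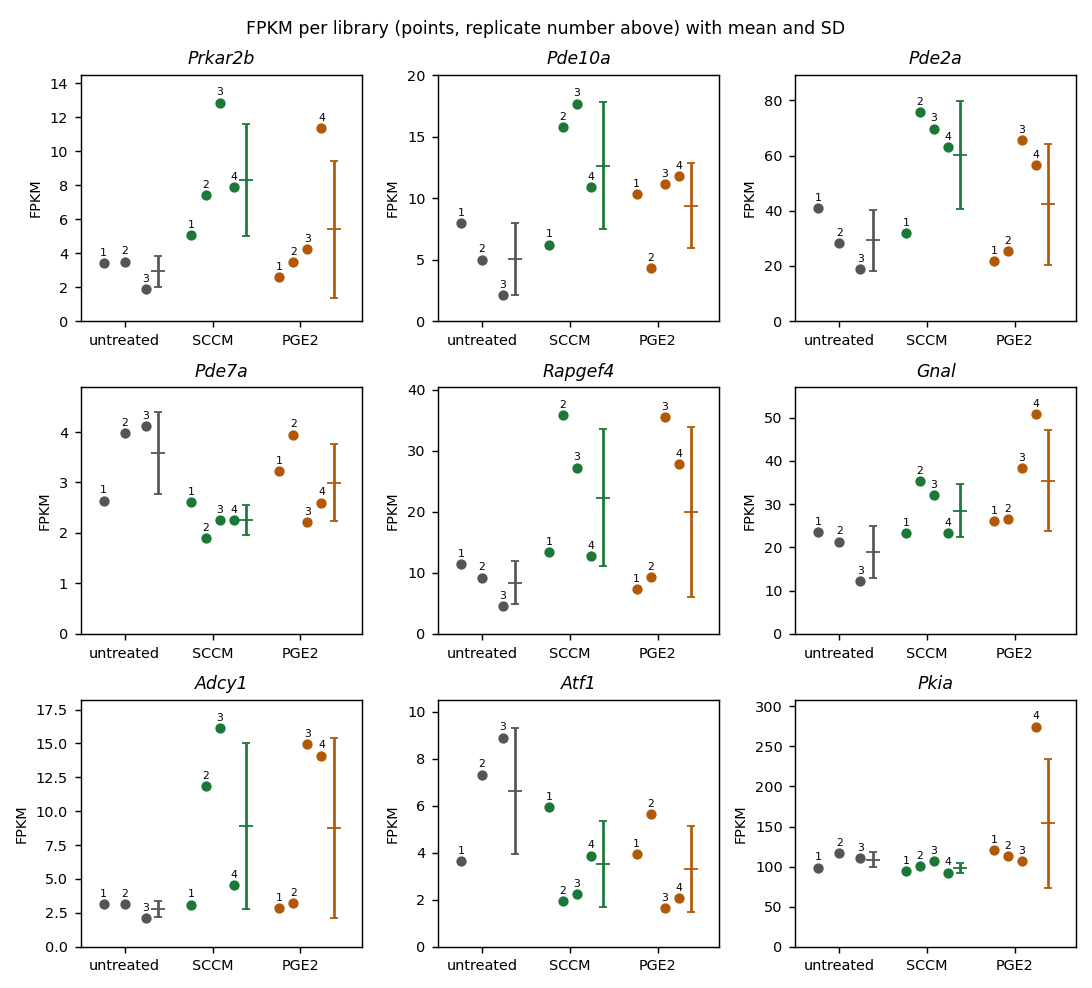
FPKM (y axis) of 9 members in each library, shown as points with the replicate number above and grouped as untreated, SCCM and PGE2 (x axis), with a bar for the mean and its SD beside each group. Adcy1 and Rapgef4 show 2 low and 2 high libraries in each treated group, Gnal is higher in all 4 PGE2 libraries than in the untreated ones, and Pkia is set apart by PGE2 replicate 4 at 274.70 FPKM.

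Among PKA subunits, the type I regulatory subunits Prkar1a and Prkar1b dominated with means of 235 and 210 FPKM over the 11 libraries, against 33.0 FPKM for Prkar2a and 5.78 FPKM for Prkar2b. Prkar1a made up 55.3 ± 5.72% of the regulatory FPKM in untreated cultures, 46.1 ± 4.34% with SCCM and 46.9 ± 3.89% with PGE2, and Prkar1b, the form enriched in neurons, 37.5 ± 5.93%, 45.3 ± 4.43% and 45.1 ± 3.24%. These shares were described and not tested. Of the catalytic subunits, Prkaca averaged 61.9 and Prkacb 11.1 FPKM, and Prkaca held 85.0 ± 1.37% of their sum in untreated cultures, 84.5 ± 2.27% with SCCM and 84.7 ± 3.28% with PGE2.

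Prkar2b, a type II subunit that anchoring proteins bind, measured 3.40, 3.50 and 1.89 FPKM in the untreated, 5.05, 7.40, 12.87 and 7.88 FPKM in the SCCM and 2.58, 3.47, 4.22 and 11.36 FPKM in the PGE2 libraries. Every SCCM library was above every untreated one, and with PGE2 only replicate 4 reached the upper SCCM range. In log2 terms the difference was 1.21 for SCCM (SE 0.40, adjusted p = 0.357, limma), 0.56 for PGE2 against untreated (SE 0.40) and 0.65 for SCCM against PGE2 (SE 0.37). Without the 4 libraries that stood apart the same values were 0.93 (SE 0.30), 0.05 (SE 0.30) and 0.87 (SE 0.33), of which the first and the last were at an unadjusted p under 0.05 and none was called. With the hypoxia and glycolysis mean as a covariate they were 0.68 (SE 0.33), 0.04 (SE 0.33) and 0.64 (SE 0.27), of which the last was at an unadjusted p under 0.05 and none was called. As a share of the regulatory FPKM Prkar2b stayed small, at 0.636 ± 0.136% in untreated cultures, 1.68 ± 0.550% with SCCM and 1.04 ± 0.659% with PGE2.

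Prkar1b measured 173.54, 201.34 and 134.53 FPKM in the untreated, 211.64, 234.92, 281.52 and 167.01 FPKM in the SCCM and 199.89, 196.65, 245.82 and 259.78 FPKM in the PGE2 libraries. Untreated replicate 2 overlapped the lower treated libraries in both groups, and untreated replicate 1 was also above SCCM replicate 4. The log2 change was 0.39 for SCCM (SE 0.22, adjusted p = 0.371) and 0.42 for PGE2 against untreated (SE 0.22, adjusted p = 0.538, limma), and without the 4 libraries that stood apart 0.17 and 0.24 (SE 0.24 each). Prkar1a lay between 205.99 and 247.82 FPKM in 10 libraries and at 318.74 FPKM in untreated replicate 1. Prkaca, Prkacb and Prkar2a had log2 changes of 0.23 (SE 0.19), 0.26 (SE 0.22) and 0.16 (SE 0.20) for SCCM and 0.10 (SE 0.19), 0.10 (SE 0.22) and 0.21 (SE 0.20) for PGE2 against untreated.

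The PKA inhibitors are small proteins that bind free catalytic subunits. Pkia was the most abundant and measured 98.86, 116.70 and 110.20 FPKM in the untreated, 94.60, 100.33, 106.52 and 92.50 FPKM in the SCCM and 120.71, 113.50, 107.19 and 274.70 FPKM in the PGE2 libraries. All SCCM values were under all PGE2 values, narrowly so for SCCM replicate 3 and PGE2 replicate 3, and PGE2 replicate 4 was far above every other library. The log2 change for SCCM against PGE2 was −0.52 (SE 0.26, adjusted p = 1.0, limma), and −0.21 without PGE2 replicate 4. For PGE2 against untreated it was 0.39 (SE 0.28), and 0.07 without PGE2 replicate 4.

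Pkig measured 6.79, 8.24 and 6.53 FPKM in the untreated, 7.87, 9.57, 15.23 and 13.23 FPKM in the SCCM and 4.69, 7.11, 11.18 and 13.07 FPKM in the PGE2 libraries. Both treated groups reached well above the untreated range and both began inside or under it. Fitted log2 changes were 0.57 for SCCM (SE 0.31) and 0.21 for PGE2 against untreated (SE 0.31), and without the 4 libraries that stood apart 0.46 and −0.26 (SE 0.28 each). Pkib lay between 8.03 and 9.45 FPKM untreated, 7.29 and 11.88 FPKM with SCCM and 3.49 and 10.32 FPKM with PGE2; its log2 change for PGE2 against untreated was −0.34 (SE 0.33) and turned to 0.23 (SE 0.19) without the 4 libraries that stood apart.

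**Figure D3:**
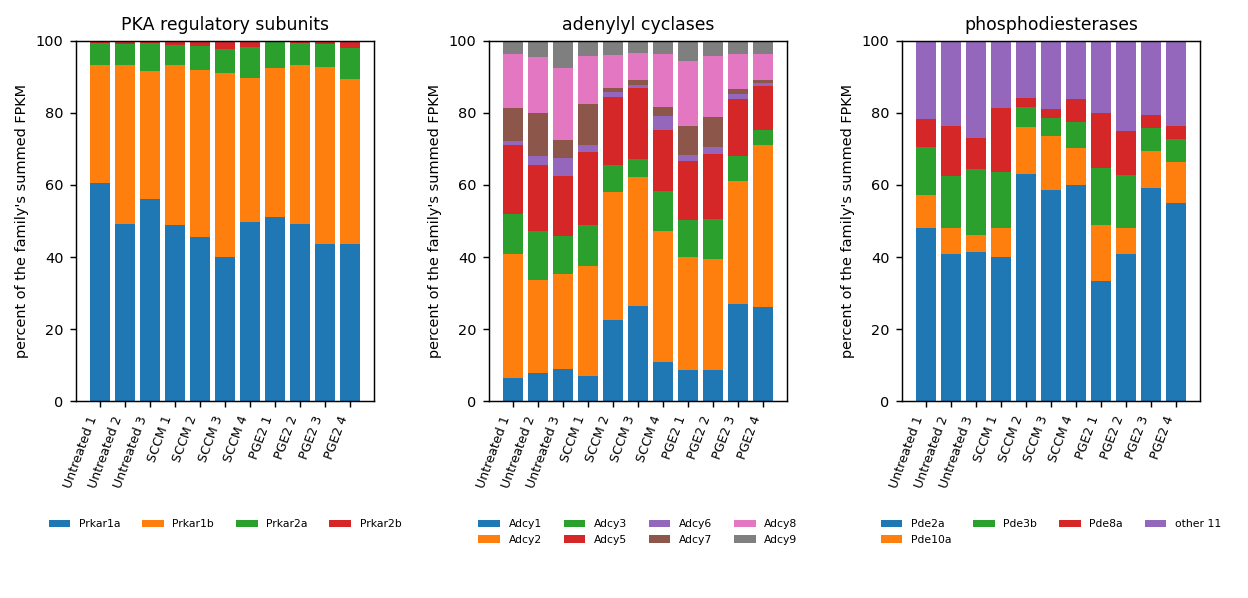
Percent of a family's summed FPKM (y axis, 0 to 100) held by each gene in each of the 11 libraries (x axis), for PKA regulatory subunits, adenylyl cyclases and phosphodiesterases, with the 11 least abundant phosphodiesterases pooled. Prkar1a and Prkar1b fill most of the first panel in every library, Adcy1 widens in SCCM replicates 2 and 3 and PGE2 replicates 3 and 4, and Pde2a is the widest band in most libraries of the third panel, with means of 43.4% untreated, 55.5% with SCCM and 47.1% with PGE2.

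Rapgef4, the EPAC form of neurons and endocrine cells, measured 11.38, 9.22 and 4.51 FPKM in the untreated, 13.35, 35.81, 27.22 and 12.78 FPKM in the SCCM and 7.30, 9.30, 35.51 and 27.74 FPKM in the PGE2 libraries. Every SCCM library was above every untreated one, 2 of them narrowly, and PGE2 replicates 1 and 2 lay within the untreated range. In limma the log2 change came to 1.26 for SCCM (SE 0.55, adjusted p = 0.357) and 0.96 for PGE2 against untreated (SE 0.55, adjusted p = 0.538). Without the 4 libraries that stood apart it was 0.67 (SE 0.35) and 0.06 (SE 0.35). Rapgef3, the other EPAC gene, lay between 0.03 and 0.22 FPKM and was not tested.

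Akap12, a scaffold that holds PKA near beta-adrenergic receptors, measured 112.59, 78.15 and 61.30 FPKM in the untreated, 92.28, 131.53, 155.99 and 123.06 FPKM in the SCCM and 79.08, 70.57, 141.13 and 224.04 FPKM in the PGE2 libraries. Its 4 highest values were those of the libraries that stood apart. In log2 terms the difference was 0.60 for SCCM (SE 0.38) and 0.50 for PGE2 against untreated (SE 0.38), and without those 4 libraries the former was 0.38 (SE 0.28) and the latter turned to −0.12 (SE 0.28). Akap5, a scaffold of synapses that also binds calcineurin, lay between 0.20 and 0.97 FPKM and was not tested.

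Creb1, the transcription factor that PKA phosphorylates, was close to the filter, between 0.81 and 1.36 FPKM, with log2 changes of 0.09 for SCCM (SE 0.18) and 0.01 for PGE2 against untreated (SE 0.18). Its relative Atf1 measured 3.65, 7.32 and 8.90 FPKM in the untreated, 5.93, 1.94, 2.25 and 3.88 FPKM in the SCCM and 3.93, 5.63, 1.63 and 2.08 FPKM in the PGE2 libraries. Untreated replicates 2 and 3 were above all treated libraries, and untreated replicate 1 was among them. The log2 change of Atf1 was −0.78 for SCCM (SE 0.40, adjusted p = 0.361) and −0.85 for PGE2 against untreated (SE 0.40, adjusted p = 0.538, limma), and without the 4 libraries that stood apart −0.32 (SE 0.36) and −0.35 (SE 0.36).

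The coactivators that enter the nucleus when cAMP or calcium is high differed from each other. Crtc1 was among the steadiest members, between 14.14 and 19.64 FPKM over all libraries, with log2 changes of −0.01 for SCCM (SE 0.15) and 0.18 for PGE2 against untreated (SE 0.15). Crtc2 measured 18.32, 23.53 and 26.13 FPKM in the untreated, 22.93, 11.54, 12.11 and 18.35 FPKM in the SCCM and 19.01, 20.39, 14.08 and 16.73 FPKM in the PGE2 libraries. The lowest 4 of these were the libraries that stood apart, and the log2 change was −0.50 for SCCM (SE 0.25, adjusted p = 0.357, limma) and −0.35 for PGE2 against untreated (SE 0.25). Without those 4 libraries it was −0.12 and −0.18 (SE 0.22 each).

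Across the 37 tested members the highest library was 2.97-fold the lowest in the median, against 2.58-fold over the 11987 tested genes above 0 everywhere. Crtc1, Adcy9 and Gnai1 stayed under 1.5-fold, and 7 members exceeded 5-fold: Pde8b, Adcy7, Pde10a, Rapgef4, Adcy1, Prkar2b and Atf1. For 8 members the 4 highest values were those of SCCM replicates 2 and 3 and PGE2 replicates 3 and 4 (Adcy1, Adcy2, Adcy9, Gnal, Pde10a, Prkar1b, Rapgef4 and Akap12), which is 21.6% of the members and 5.23% of all tested genes. For 6 members those libraries held the 4 lowest values (Adcy7, Pde3b, Pde8a, Pkib, Atf1 and Crtc2), which is 16.2% of the members and 19.0% of all tested genes. These 4 libraries were picked out by the first principal component of all tested genes, members included, and form no group of the study, so the shares are descriptions and were not tested.

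**Figure D4:**
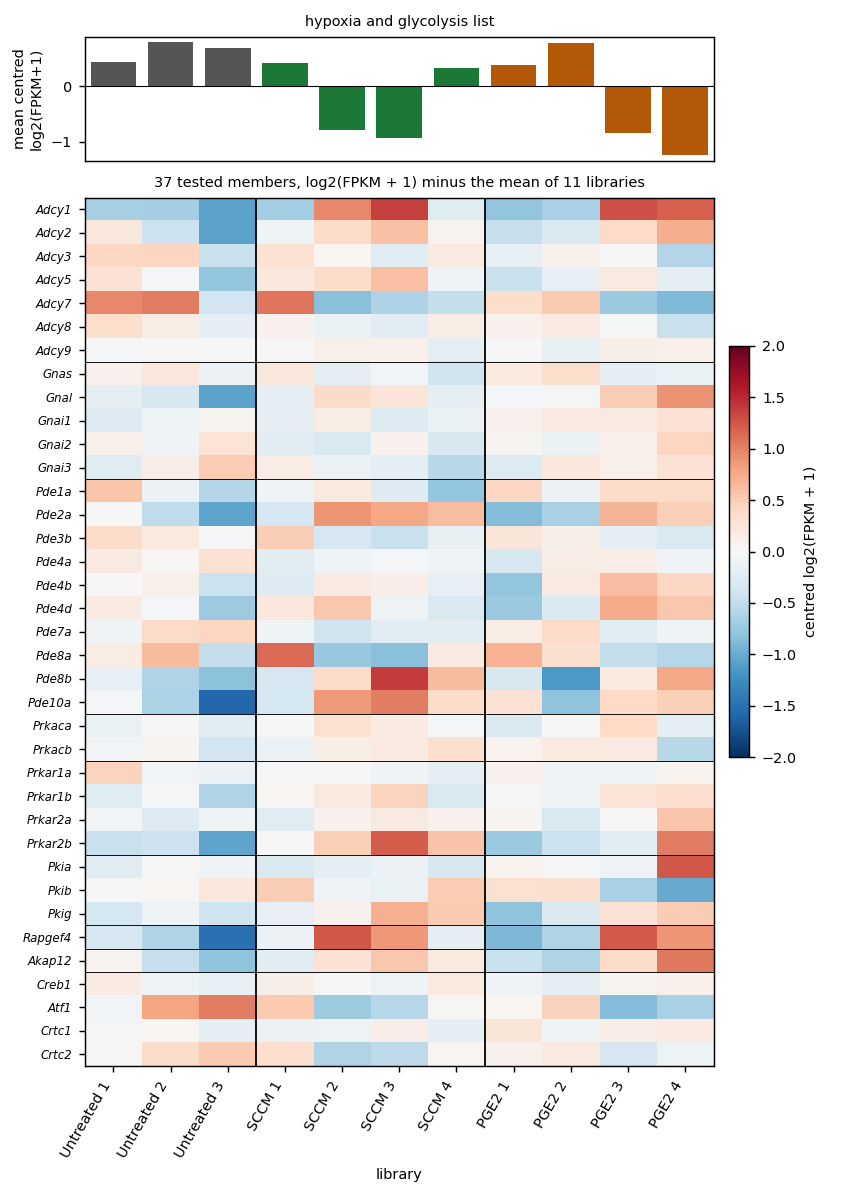
Centred log2(FPKM + 1) (colour) of the 37 tested members (rows, in order of family) in the 11 libraries (columns), under a bar plot of the mean centred log2(FPKM + 1) of the hypoxia and glycolysis list in the same libraries. Red cells for Adcy1, Rapgef4 and Pde10a in SCCM replicates 2 and 3 and PGE2 replicates 3 and 4 coincide with negative bars of −1.24 to −0.797, and the same libraries are blue for Adcy7 and Atf1. Pde10a also lies above its mean in SCCM replicate 4 (10.89 FPKM) and PGE2 replicate 1 (10.32 FPKM), where the bars are positive (0.330 and 0.375).

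Other genes of the pathway, listed by role, gave no called gene in any of the 3 comparisons (limma, adjusted over all tested genes). Among 25 tested G protein subunits and regulators outside the members, 5 were at an unadjusted p under 0.05 for SCCM against untreated, 3 higher and 2 lower, against 13.6% of all tested genes. Gna11, an alpha subunit of the Gq family that couples to phospholipase C and not to cyclases, had means of 11.3 ± 0.380 FPKM untreated and 17.5 ± 3.01 FPKM with SCCM, with log2 changes of 0.58 against untreated (SE 0.20, adjusted p = 0.357) and 0.53 against PGE2 (SE 0.19, adjusted p = 1.0, limma). Gng5, a gamma subunit, had log2 changes of −0.72 for SCCM (SE 0.23) and −0.63 for PGE2 against untreated (SE 0.23).

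Among 17 tested further genes of the CREB family and its regulators, 2 had higher and 15 lower means with SCCM, and likewise with PGE2, where 38.7% and 32.9% of all tested genes had higher means. Ppp1r1a, a PKA-regulated inhibitor of protein phosphatase 1, had the lowest p (log2 change −0.95 for SCCM against untreated, SE 0.26, adjusted p = 0.357, limma). Of 18 further anchoring proteins, 3 were at p under 0.05 for SCCM and 2 for PGE2 against untreated, beside 13.6% and 5.72% of all tested genes, with Ezr, which links actin to the membrane, at −0.94 (SE 0.30) and −0.81 (SE 0.30). Gs-coupled receptors had 10 tested genes, of which 2 had higher and 8 lower means with SCCM and 1 higher and 9 lower means with PGE2, against the same shares of 38.7% and 32.9%. Gipr, the receptor of the gut hormone GIP, had log2 changes of −2.07 for SCCM (SE 0.72, adjusted p = 0.357) and −1.91 for PGE2 against untreated (SE 0.72, adjusted p = 0.538, limma). Gi-coupled receptors had 19 tested genes, with 14 at higher means with SCCM and 13 with PGE2, beside 38.7% and 32.9% of all genes. Htr1b, a serotonin receptor, was at 1.72 for SCCM against untreated (SE 0.51) and 1.42 for SCCM against PGE2 (SE 0.47). Chrm4 of the same list was lower, at −1.61 for SCCM and −1.19 for PGE2 against untreated (SE 0.48 each).

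Genes known as targets of cAMP and CREB had 25 tested members, of which 20 had lower means with SCCM (median log2 change −0.60) and 23 with PGE2 (median −0.72), where the medians of all genes were −0.13 and −0.16 and 38.7% and 32.9% of all genes had higher means. At an unadjusted p under 0.05 stood 2 of them in each comparison (13.6% and 5.72% of all genes). Per2, a clock gene, was 1 of them in both, at −1.44 for SCCM (SE 0.45) and −1.04 for PGE2 against untreated (SE 0.45). With SCCM the other was Nptx2, a secreted pentraxin of synapses, which was higher at 0.87 (SE 0.36). With PGE2 the other was Rgs2, which was lower at −1.15 (SE 0.45). Nptx2 stood at 1.54 for SCCM against PGE2 (SE 0.33, adjusted p = 1.0, limma). The hypoxia and glycolysis list, which divides the libraries in the same way, had 31 of 34 tested genes at lower means in each treated group, and its part in the values of the CREB targets was not tested.

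Windows around transcript starts (250 bases before to 50 after, RefSeq, build GRCr8) were at hand for 32 of the 45 members, 48 windows in all, and were searched for the cAMP response element because CREB binds it. The full element TGACGTCA, which reads the same on both strands, was in none of the 48 windows and in 1.83% of all 33469 windows. The half-site TGACG, read as CGTCA on the other strand and contained in the full element, was in 14 windows (29.2%) of 12 members, against 21.2% of all windows. Shown are 3 windows, because Pde10a and Prkar2b had the lowest p among members for SCCM against untreated, the Pde10a window shown with half-sites and that of Prkar2b without, and because 1 Creb1 window held the most matches. Pde10a and Creb1 each had 1 more window (chr1:54501157-54501456 and chr9:73414978-73415277), and neither held a half-site. They are Pde10a at chr1:54765619-54765918 on the minus strand, Prkar2b at chr6:54381362-54381661 on the minus strand and Creb1 at chr9:73397259-73397558 on the plus strand, written 5′ to 3′ along the gene, with half-sites in capitals.
Pde10a: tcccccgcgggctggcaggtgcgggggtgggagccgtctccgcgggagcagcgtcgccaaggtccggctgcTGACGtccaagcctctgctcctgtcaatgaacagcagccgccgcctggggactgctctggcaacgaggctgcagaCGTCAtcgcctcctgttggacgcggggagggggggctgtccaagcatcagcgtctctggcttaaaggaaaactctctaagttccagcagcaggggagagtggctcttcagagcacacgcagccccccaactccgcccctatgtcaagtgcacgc
Prkar2b: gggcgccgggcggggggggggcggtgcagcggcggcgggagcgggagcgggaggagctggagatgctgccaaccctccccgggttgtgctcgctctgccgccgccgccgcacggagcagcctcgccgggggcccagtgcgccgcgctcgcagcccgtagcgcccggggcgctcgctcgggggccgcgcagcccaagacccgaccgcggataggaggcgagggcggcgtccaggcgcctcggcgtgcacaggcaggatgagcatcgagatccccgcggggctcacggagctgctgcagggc
Creb1: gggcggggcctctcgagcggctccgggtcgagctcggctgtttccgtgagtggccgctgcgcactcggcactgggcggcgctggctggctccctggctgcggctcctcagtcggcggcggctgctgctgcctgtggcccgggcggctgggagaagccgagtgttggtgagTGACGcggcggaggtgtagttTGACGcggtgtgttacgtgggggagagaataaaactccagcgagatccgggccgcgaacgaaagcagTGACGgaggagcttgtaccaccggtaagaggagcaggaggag
The Pde10a half-sites began 179 and 104 bases upstream of the transcript start, and those of Creb1 80 and 59 bases upstream and 8 bases downstream. The Prkar2b window held no half-site and was 79.0% G and C. A match is a string of letters in this window and no evidence of binding, and the windows come from another genome build than the expression values.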

How the data were processed

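Stranded, poly-A enriched libraries were sequenced from RNA with an integrity number over 8, per the labels' protocols. The table deposited by the authors gives each gene's FPKM per library, that is, fragments scaled by gene length and by the library's mapped total. The submitters' processing notes name Rnor 6.0 as the build. No aligner, counting tool, strand setting or annotation is given in the sources used here, so overlapping antisense genes cannot be told apart. Without read totals no counting interval could be computed. Testing required a mean of 1 FPKM or more across libraries and used log2(FPKM + 1), which understates changes of low genes. A single limma fit (version 3.58.1, R 4.3.3) of 3 groups with an intensity trend gave two-sided moderated tests. P-values were adjusted by Benjamini-Hochberg over 12107 genes per comparison, and calls were made under an adjusted p of 0.05. P-values measure the spread between replicates of 1 pregnant rat each. Tables were joined in Python 3.11.15 with pandas 2.3.3. The fit was tested on simulated data whose noise was independent between genes and between libraries. A component shared by many genes, like the first principal component here, was not simulated, so that test does not cover it.

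The members and gene lists were chosen with earlier results of these data known. Any member could be named. Tests are set out for the 4 members of lowest p per comparison, and adjusted p-values for some others as well, among them Adcy1, Rapgef4, Pde8b and Crtc2. A direction of 1 member is read only where its log2 change exceeds its standard error. Genes of other lists are named by lowest p under 0.05, at most 3 per list and comparison. The settings varied were the pseudocount (0.1), the filter (none, or 5 FPKM), the scaling (median ratio, quantile), the libraries in the fit (the compared groups alone, or all but 1), the eBayes options, array weights and a block on replicate number. The covariate and the omission of 4 libraries were added after seeing the data. Promoter windows come from RefSeq build GRCr8.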

Additional observations from a re-analysis of the deposited data

Results flagged for a closer look

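In each group of 4 libraries, the value farthest from its neighbour was compared with the whole range of the group. Of 90 such groups, 6 held a library that stood apart. In 3 of these the other values were all listed at 0, so that any value above 0 stood apart, and they are not set against chance; 4 groups had at most 1 value above 0. Among the other 86 groups 3 held such a library, where chance gives about 1 in 20.

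Pkia, the most abundant PKA inhibitor, was at 274.70 FPKM in PGE2 replicate 4 and at 107.19 to 120.71 FPKM in the other PGE2 libraries. Adcy7, a cyclase, was at 4.94 FPKM in SCCM replicate 1 and at 0.58 to 1.02 FPKM in the other SCCM libraries. Pde1a, a calcium-stimulated phosphodiesterase, was at 2.12 FPKM in PGE2 replicate 2 and at 3.32 to 3.47 FPKM in the others.

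The other 3 concern phosphodiesterases that were almost undetected. Pde4c was at 0.07 FPKM in PGE2 replicate 2 and listed at 0 in the other PGE2 libraries. Pde7b was at 0.03 FPKM in SCCM replicate 3 and at 0.03 FPKM in PGE2 replicate 4, and listed at 0 in the others of each group.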

How the results depend on the processing

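No member was called under any alternative except array weights, which called 7314 genes and 22 members for SCCM against untreated and 2 genes for PGE2 against untreated. That fit gave untreated replicate 2 a weight of 41.1, with no other library above 1.89, and did not converge. It put 22, 6 and 5 of 37 members at an unadjusted p under 0.05 for SCCM and PGE2 against untreated and SCCM against PGE2. The same counts over all 12107 tested genes were 7874, 3730 and 1342.

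For SCCM against untreated, members at that p numbered 1 (Prkar2b) with the replicate block, beside 772 of 12107 genes. With the hypoxia and glycolysis covariate there were 2, Gnai2 and Pkib, beside 565 genes. Neither was among the 6 of the main fit. Their log2 changes were −0.46 (SE 0.17) and 0.66 (SE 0.16), each at an adjusted p of 0.868 (limma). Without the 4 libraries that stood apart there was 1 (Prkar2b), beside 401 genes, and 1 gene was called. Leaving out 1 library gave 0 to 12 members, and genes called were 0 to 1. There were 0 members without untreated replicate 3 (401 of all genes at that p). There were 2 without untreated replicate 2 (956 genes) or SCCM replicate 2 (699) or 3 (631). Without untreated replicate 1 there were 11 members (2662 genes), and without SCCM replicate 1 there were 12 (3060 genes).

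For PGE2 against untreated, all genes at that p are given in parentheses. The number of members was 2 with no filter (1032 of 18831 genes), 3 with median-ratio scaling (655 of 12107) and 2 with quantile normalization (656). It was 0 with the covariate (150 genes) and 0 without the 4 libraries (117). Leaving out 1 library gave 1 to 4 members (185 to 2301 genes). There were 2 members without untreated replicate 2 or SCCM replicate 1, and 4 without untreated replicate 1 or PGE2 replicate 1 or 2. Without untreated replicate 3 it was Adcy3 and not Gnal.

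For SCCM against PGE2 it was 1 with no filter (648 of 18831 genes), 7 with the covariate (811 of 12107) and 2 without the 4 libraries (387). Of the 7, Pkib had the lowest p (log2 change 0.47, SE 0.13, adjusted p = 0.556, limma). Leaving out 1 library gave 0 to 2 members (248 to 621 genes). Genes called were 0 with a pseudocount of 0.1, with no filter and with the replicate block, 2 with the covariate and 0 to 1 leaving out 1 library; it was 0 without untreated replicate 2, SCCM replicate 2, 3 or 4 or PGE2 replicate 1, 3 or 4. The cause was not tested.

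Same-numbered libraries did not deviate together: of 10 pairs 3 correlated above 0.1 (−0.506 to 0.493), so the numbers were not taken to pair cultures. Of the members' log2 changes, 54 were larger than their standard error. Of their 1230 values under the alternatives, 1208 kept direction and side of the threshold, 17 became called (all under array weights) and 5 turned direction, all for PGE2 against untreated: Akap12 to −0.0654 with the covariate and −0.123 without the 4 libraries, Pkib to 0.193 and 0.234, and Prkar2a to −0.0162 with the covariate. Of the other 57 changes, within their standard error, 48 turned direction under at least 1 alternative.

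The median of all genes, −0.13 (SCCM) and −0.16 (PGE2), became −0.01 and −0.02 with median-ratio scaling, where 24 and 28 of 37 members had higher means. The share of all genes with higher means under that scaling is not given here. The 38.7% and 32.9% of the main fit cannot stand in for it. Members near 1 FPKM, such as Creb1, rest on few fragments, and the limit cannot be given without read totals.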
